A study of Mus musculus with 12 samples.

Results

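The transcripts described here are 38 mouse genes of neurons and synapses, measured in astrocytes sorted from the hippocampus. They were picked by name: the fusion machinery of vesicles, vesicle and active zone proteins, transmitter transporters and enzymes, neuronal identity and cytoskeleton genes, and postsynaptic scaffolds and receptors. All 38 were found among the 56941 genes of the deposited table, each in 1 row, and all are protein coding. Cells were isolated by flow cytometry on ACSA-2, an astrocyte surface antigen, from naive adult males, and RNA was read in 12 libraries after low-input amplification (SMART-Seq V4). The 6 libraries labelled Ctrl came from Tnfrsf1bfl/fl mice and the 6 labelled cKO from GfapcreERT2:Tnfrsf1bfl/fl mice. Both genotypes therefore carry the floxed gene for TNFR2, a receptor of tumour necrosis factor, and cKO adds a tamoxifen-dependent recombinase under the promoter of Gfap, an astrocyte gene. The labels state no tamoxifen schedule and do not say how many mice stand behind a library or what A and S mean. Each A number in the sample titles (A1, A2 and A8 for Ctrl, A4, A9 and A10 for cKO) has an S1 and an S2 library, which were averaged, so n is 3 A numbers per genotype and p-values measure the spread between these samples.

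At a synapse, SNARE proteins on the vesicle and on the plasma membrane zip together to fuse the membranes, synaptotagmin triggers the step on calcium, and a scaffold opposite holds the receptors. Neurons use a dedicated set of these proteins, whereas other cells run their own exocytosis with close relatives such as Snap23 and Vamp3. Astrocytes are known to lie against synapses, to take up transmitter and to hold SNARE proteins of the general set. A sorted preparation can also carry RNA from other cells, so the level of a gene that astrocytes should lack is part of the reading.

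Promoters were examined because many neuronal genes carry RE1, an element bound by the repressor REST outside neurons. The letters AGCACCNNGGACAG, the core of RE1, were searched on both strands in RefSeq windows from 250 bases before to 50 bases after each start (GRCm38.p6). Of 32851 windows, 17 (0.0517%) held them exactly and 116 (0.353%) held them with at most 1 mismatch in the 12 fixed letters. RefSeq windows were found for 27 of the 38 genes, 34 windows in all. The exact letters stood in 1 of these, that of Gad2, and a match with 1 mismatch stood in those of Syn1 and Slc17a6, the latter after the start. The 250 bases before the start are printed for Gad2 and Syn1, with the match in capitals, and for Map2, the gene with the highest level below, in whose window no match was found.
Gad2, chr2:22622077-22622326, plus strand: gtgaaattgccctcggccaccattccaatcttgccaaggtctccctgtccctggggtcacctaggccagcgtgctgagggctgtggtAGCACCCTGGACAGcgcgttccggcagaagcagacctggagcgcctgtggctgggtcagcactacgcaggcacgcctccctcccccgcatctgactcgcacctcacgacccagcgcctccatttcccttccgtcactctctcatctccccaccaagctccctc
Syn1, chrX:20920919-20921168, minus strand: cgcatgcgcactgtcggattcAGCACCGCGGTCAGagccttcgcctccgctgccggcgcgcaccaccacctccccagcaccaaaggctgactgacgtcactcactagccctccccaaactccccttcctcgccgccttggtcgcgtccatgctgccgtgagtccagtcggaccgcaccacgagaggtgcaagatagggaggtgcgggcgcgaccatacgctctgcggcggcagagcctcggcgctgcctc
Map2, chr1:66175079-66175328, plus strand: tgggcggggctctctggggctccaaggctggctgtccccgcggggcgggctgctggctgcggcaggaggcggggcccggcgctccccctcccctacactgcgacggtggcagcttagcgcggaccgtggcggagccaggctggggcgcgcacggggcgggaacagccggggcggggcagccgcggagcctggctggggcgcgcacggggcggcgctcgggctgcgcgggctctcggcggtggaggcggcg
In Gad2 the match begins 163 bases before the start and in Syn1 it begins 229 bases before it. A match of letters is a description and says nothing of binding in these cells.

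The depth recovered from the values ran from 17311872 to 31499016 reads per Ctrl library and from 17451195 to 35323322 reads per cKO library. Tnfrsf1b, the floxed gene, was listed at 0 in 9 of the 12 libraries, with 4 reads in A1 S1 and with 10 and 22 reads in the A4 libraries labelled cKO. It therefore does not check the labels, and the groups are named below as labelled. A4 also had the highest sum of the listed microglial genes, 38.5 FPKM, and the source of its Tnfrsf1b reads was not tested. Levels are the deposited FPKM, scaled by exonic length and library depth. Of the low whole counts recovered, 72.6% to 80.4% per library were even, so a read pair mostly counted as 2 reads. The fragments behind a value are then fewer than the reads given here. The exonic length is that of the annotated exons of a gene, so a comparison of levels between genes depends on the annotation too. The astrocyte markers stood far above the transcripts described here: 12 listed genes summed to between 5315 and 7067 FPKM per A number, led by the glutamate transporter Slc1a2 at a mean of 1687 FPKM. Among 20 genes of mature neurons chosen outside the 38, the interneuron gene Vip was listed at 0 in every library, and the surface glycoprotein Thy1 had the highest mean, at 9.56 FPKM.

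The 38 transcripts ranged from nearly absent to moderately abundant. Their median level was 1.90 FPKM over all 38, of which 12 had a mean below 1 FPKM. The genes tested were the 17540 with a mean of at least 1 FPKM over the libraries, and their median was 4.37 FPKM. These medians are not like for like, since only the latter leaves out low genes. At 10 FPKM or more in each of the 6 A numbers stood 3 genes, Map2, Vamp2 and Vamp3. Below 1 FPKM in each of them stood 6 genes, Slc17a7, Slc32a1, Gad1, Gad2, Rbfox3 and Grin2a. The other 29 met neither rule, and 14 of them stayed between 1 and 10 FPKM throughout. Most were detected throughout: 31 of the 38 had more than 3 reads in all 12 libraries. Of the 38, 26 reached the mean of 1 FPKM and were tested between genotypes, and 15 share exon bases with another gene. The shared stretch is between 0.273% and 32.8% of the member's exonic length for its largest overlap, and reads there cannot be assigned to 1 gene with certainty, since no strand is stated for the counting and Bsn shares its stretch with a gene on the same strand.

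**Figure D1:**
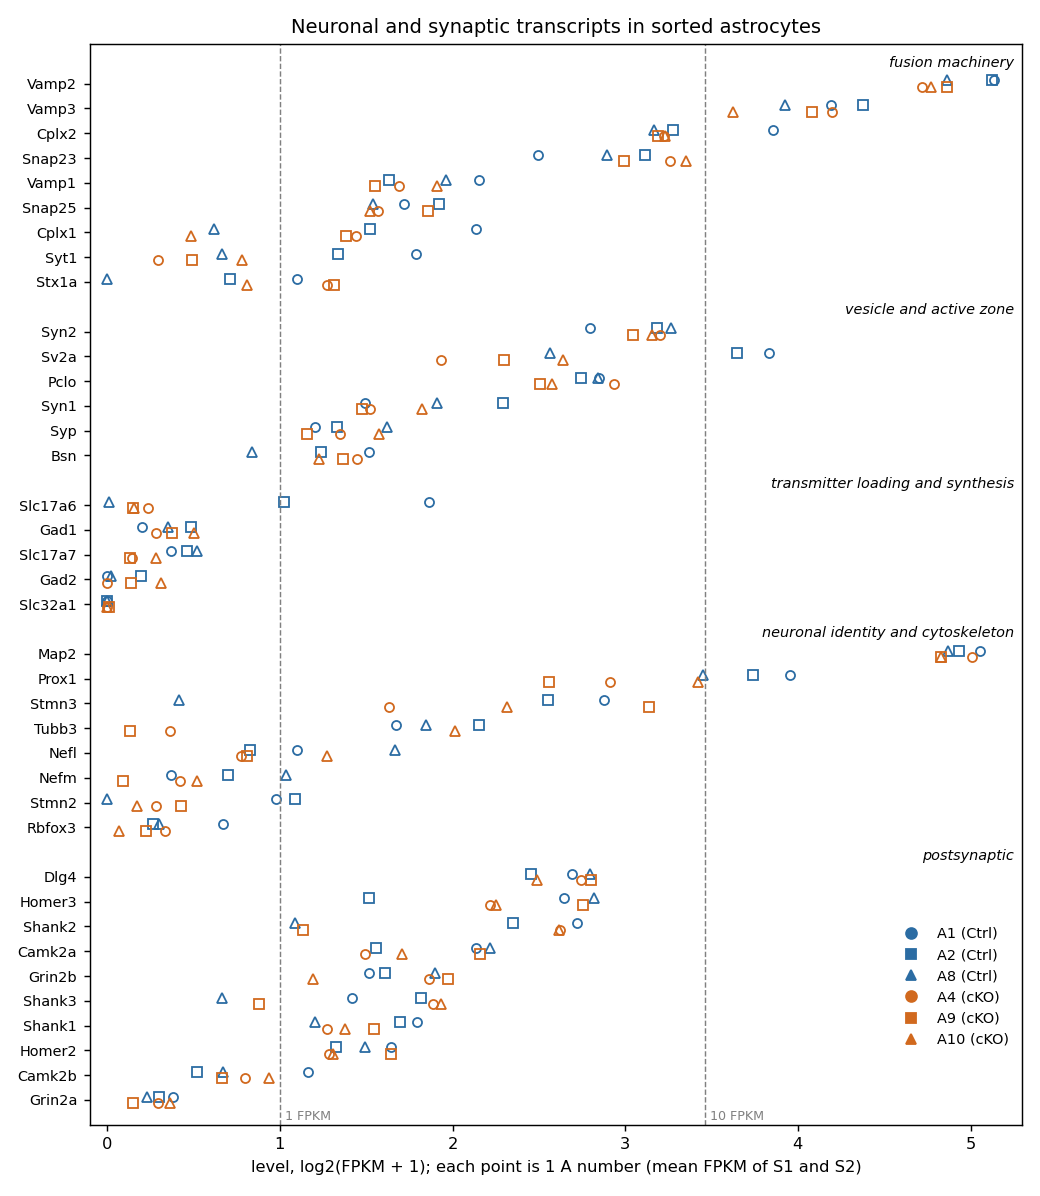
Level of the 38 transcripts by role, as log2(FPKM + 1), with 1 point per A number (mean FPKM of S1 and S2; blue for Ctrl, orange for cKO) and dashed lines at 1 and 10 FPKM. Vamp2, Vamp3 and Map2 lie right of the 10 FPKM line in each A number, and the transmitter transporters and enzymes cluster at the left edge apart from Slc17a6 in A1 and A2.

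In the fusion machinery the vesicle SNARE Vamp2 led. Vamp2 (ENSMUSG00000020894, chromosome 11, start 68979316, end 68983210 in the deposited coordinates) had 34.2, 33.9 and 28.1 FPKM in the Ctrl A numbers A1, A2 and A8 and 25.4, 28.1 and 26.3 FPKM in the cKO A numbers A4, A9 and A10. The highest value was 1.35 times the lowest. Vamp3 (ENSMUSG00000028955, chromosome 4, start 151131757, end 151142420), the cellubrevin of general membrane traffic, had 17.3, 19.8 and 14.2 FPKM in Ctrl and 17.4, 15.9 and 11.4 FPKM in cKO. Vamp1, the third vesicle SNARE, lay between 1.93 and 3.44 FPKM. So Vamp2 and Vamp3 were steady across A numbers of both genotypes. Over the 15641 tested genes above 0 in each A number, the median ratio of highest to lowest was 2.02.

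The plasma membrane SNAREs divided by family member. Snap23 (ENSMUSG00000027287, chromosome 2, start 120398152, end 120431736), the relative found in many tissues, had 4.64, 7.65 and 6.45 FPKM in Ctrl and 8.59, 6.96 and 9.22 FPKM in cKO. Snap25 (ENSMUSG00000027273, chromosome 2, start 136555373, end 136624348), its neuronal counterpart, had 2.30, 2.79 and 1.91 FPKM in Ctrl and 1.97, 2.63 and 1.87 FPKM in cKO. Snap25 was therefore low but even, within 1.49-fold, and rested on 224 to 595 reads per library. Stx1a, the plasma membrane partner of Snap25, had 1.14 and 0.640 FPKM in A1 and A2 and 1.41, 1.49 and 0.755 FPKM in cKO. In A8 Stx1a was listed at 0 in both libraries, where 3 reads would give 0.0574 and 0.0357 FPKM.

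The regulators of fusion were uneven. Cplx2, a complexin that holds assembled SNAREs ready, had 13.5 FPKM in A1 and between 7.98 and 8.69 FPKM in the other 5 A numbers. Cplx1, its relative, ran from 0.398 FPKM in A10 to 3.39 FPKM in A1. Syt1, the calcium sensor of synaptic release, had 2.45 and 1.53 FPKM in A1 and A2, 0.587 FPKM in A8 and 0.226, 0.408 and 0.720 FPKM in cKO. Syt1 thus differed 10.8-fold between A1 and A4, in contrast to Snap25, with which it acts at the synapse.

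Among vesicle and active zone genes, Syn2 and Pclo were the steadiest high ones. Syn2, a synapsin that tethers vesicles to the cytoskeleton, lay between 5.96 and 8.62 FPKM, and Pclo, the piccolo scaffold of the active zone, between 4.68 and 6.66 FPKM. Syn1 lay between 1.78 and 3.89 FPKM, Syp, which encodes synaptophysin, between 1.24 and 2.08 FPKM, and Bsn, the bassoon partner of piccolo, between 0.790 and 1.86 FPKM. Syn2 holds the gene Timp4 on its opposite strand, and their exons overlap by 90 bases. Sv2a (ENSMUSG00000038486, chromosome 3, start 96088467, end 96102837), a vesicle glycoprotein, was the uneven one, with 13.2 and 11.5 FPKM in A1 and A2, 4.92 FPKM in A8 and 2.82, 3.92 and 5.23 FPKM in cKO. Its values in A1 and A2 stood above every other A number, and A8 lay inside the cKO range.

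Genes that load or make transmitter were the lowest role. Slc32a1, the vesicular transporter of GABA and glycine, was listed at 0 in 11 libraries and had 1 read in the A9 S2 library. Gad2, a GABA-synthesising enzyme, had 0.145 FPKM in A2 and 0.0993 and 0.242 FPKM in A9 and A10, with at most 2 reads per library in A1, A8 and A4. Gad1, the other such enzyme, lay between 0.148 and 0.419 FPKM in every A number. Slc17a7, which loads glutamate in most cortical and hippocampal principal cells, had 0.293, 0.378 and 0.433 FPKM in Ctrl and 0.105, 0.0966 and 0.216 FPKM in cKO. The A numbers did not overlap between genotypes for Slc17a7, but its mean was below the 1 FPKM needed for the test. Of the genes tested, to which it does not belong, 7.26% had A numbers apart with cKO lower. Its single libraries, with 10 to 70 reads each, did overlap.

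The second glutamate transporter, Slc17a6 (ENSMUSG00000030500, chromosome 7, start 51271754, end 51320867), did not follow Slc17a7. It had 2.64 FPKM in A1 and 1.03 FPKM in A2, from 268 and 450 reads and from 88 and 170 reads in the S1 and S2 libraries. In A8 it had 0 and 2 reads, and in cKO 0.180, 0.108 and 0.113 FPKM. Its high values were thus in A1 and A2 and not in the third Ctrl A number. Among the listed neuronal genes outside the 38, Reln, a secreted glycoprotein, likewise had 16.0 and 11.0 FPKM in A1 and A2 and between 0.512 and 1.03 FPKM in the other 4 A numbers. The 20 mature neuron genes together summed to 82.1 and 75.2 FPKM in A1 and A2, to 34.7 FPKM in A8 and to between 32.5 and 48.2 FPKM in cKO. Tbr1, Elavl4, Meg3 and Snhg11 of that list were also highest in A1 and A2. Their values there were 2.50 and 1.58, 3.40 and 2.31, 5.26 and 4.47, and 11.0 and 6.34 FPKM. Other genes of that list did not share the pattern of Reln. Thy1, Nrgn and Chn1 were highest in A8, at 11.1, 8.44 and 8.10 FPKM, and Calb1 in A10, at 9.06 FPKM. Of those 20, 11 were tested, 5 with a log2 fold change below 0 and 6 above, with a median of 0.03. Of the 11, only Snhg11 had an unadjusted p under 0.05, lower in cKO (log2 fold change -1.61, SE 0.48, limma adjusted p = 0.461). The part of neuronal RNA in the Slc17a6 values was not tested, and in bulk RNA fewer cells of a type and less RNA per cell cannot be told apart.

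Among identity and cytoskeleton genes the contrast was sharpest. Map2 (ENSMUSG00000015222, chromosome 1, start 66214432, end 66481742), a microtubule-associated protein best known from dendrites, had 32.2, 29.6 and 28.3 FPKM in Ctrl and 31.2, 27.4 and 27.4 FPKM in cKO. Its highest value was 1.17 times its lowest, the smallest ratio among the 33 of the 38 genes with more than 3 reads in every A number. At least 7995.5 reads stood behind Map2 in each library (some recovered counts are not whole, and the counting rule is not stated). Rbfox3, which encodes the neuronal nuclear antigen NeuN, had 0.590, 0.203 and 0.234 FPKM in Ctrl and 0.261, 0.167 and 0.0502 FPKM in cKO. Map2 therefore averaged 29.3 FPKM in preparations in which the classical neuronal nuclear marker stayed below 1 FPKM.

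Other cytoskeleton genes varied widely between A numbers. Tubb3 (ENSMUSG00000062380, chromosome 8, start 124138163, end 124148754), a tubulin of neurons, had 2.19, 3.45 and 2.60 FPKM in Ctrl and 0.285, 0.0949 and 3.05 FPKM in cKO. It was low in A4 and A9, from at most 28 reads per library, whereas A10 lay inside the Ctrl range. Stmn3, a stathmin that regulates microtubules, had 6.35 and 4.87 FPKM in A1 and A2, 0.336 FPKM in A8 and 2.10, 7.80 and 3.98 FPKM in cKO. Its relative Stmn2 had 0.967 and 1.12 FPKM in A1 and A2, was listed at 0 in A8 and had 0.216, 0.346 and 0.127 FPKM in cKO. The neurofilament genes Nefl and Nefm reached 2.18 and 1.05 FPKM, both in A8, but their exons overlap by 1108 bases on opposite strands, so reads of the one cannot be told from the other there.

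Prox1 (ENSMUSG00000010175, chromosome 1, start 189850232, end 189902911) is a homeobox transcription factor of dentate granule neurons that is also known from the oligodendrocyte lineage. It had 14.5, 12.4 and 9.92 FPKM in Ctrl and 6.54, 4.89 and 9.70 FPKM in cKO. All 3 Ctrl A numbers lay above all 3 cKO A numbers, by a narrow margin between A8 and A10. The antisense gene Prox1os shares 145 bases of exon with it.

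The 10 postsynaptic genes were all below 10 FPKM. Dlg4, which encodes the scaffold PSD-95, was the highest on average and steady, between 4.49 and 5.98 FPKM. Camk2a, the kinase abundant in excitatory spines, lay between 1.82 and 3.66 FPKM and Camk2b between 0.437 and 1.24 FPKM. Of the NMDA receptor subunits, Grin2b had 1.29 to 2.92 FPKM and Grin2a 0.109 to 0.301 FPKM. Homer2, an adaptor of metabotropic receptors, stayed between 1.44 and 2.13 FPKM, while Homer3 had 1.86 FPKM in A2 and otherwise lay between 3.65 and 6.05 FPKM. Of the exonic length of Homer3, 25.4% overlaps exons of Ddx49 on the other strand.

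The Shank scaffolds showed a split that did not follow genotype. Shank2 (ENSMUSG00000037541, chromosome 7, start 143555665, end 143978231) had 5.58, 4.10 and 1.13 FPKM in Ctrl and 5.15, 1.20 and 5.14 FPKM in cKO. Shank3 had 1.67, 2.53 and 0.585 FPKM in Ctrl and 2.70, 0.840 and 2.82 FPKM in cKO. Both genes were lowest in A8 and A9, 1 A number of each genotype, and Shank1, between 1.30 and 2.47 FPKM, was lowest in A8 but not low in A9. Markers of ependymal cells, which line the ventricles, were also lowest in A8 and A9: the 8 listed genes summed to 274, 246 and 54.5 FPKM in Ctrl and to 141, 50.7 and 173 FPKM in cKO. None of these 8 was at 0, and their part in the Shank2 and Shank3 values was not tested.

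Relatives within a family were then compared inside each A number, over 15 pairs of members. The difference in log2(FPKM + 1) was tested over the 6 A numbers of both genotypes with a two-sided exact sign-flip permutation test, whose smallest possible p is 0.0312, and p-values were adjusted over the 15 pairs by Benjamini-Hochberg. In 13 pairs the same relative was higher in all 6 A numbers, each with an exact p of 0.0312 and an adjusted p of 0.0361. The test shows only that 1 gene of a pair stood above the other in these preparations. How often pairs of other genes keep 1 order was not computed, so the 13 are not read as particular to these relatives. The general Snap23 exceeded the neuronal Snap25 by 1.33 ± 0.39 on the log2 scale (SD, n = 6, exact adjusted p = 0.0361). Vamp3 exceeded Vamp1 by 2.25 ± 0.40 but lay below Vamp2 by 0.85 ± 0.21 (mean -0.85, SD, n = 6 each), so the vesicle SNARE most used by neurons was also the highest of the 3 here. Cplx2 exceeded Cplx1 by 2.06 ± 0.46, Syn2 exceeded Syn1 by 1.35 ± 0.27 and Stmn3 exceeded Stmn2 by 1.67 ± 0.78.

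Among postsynaptic and scaffold pairs, Grin2b exceeded Grin2a by 1.39 ± 0.37 and Homer3 exceeded Homer2 by 0.92 ± 0.38 (SD, n = 6 each). These differences depend on the annotated exonic length, 12621 bases for Homer2 and 3440 bases for Homer3. By reads, not scaled by length, Homer2 was higher than Homer3 in every library. Stmn2 had more reads than Stmn3, and Nefm more than Nefl, in both libraries of A2. Bsn minus Pclo was -1.47 ± 0.29, Camk2b minus Camk2a was -1.09 ± 0.36, Shank3 minus Shank2 was -0.66 ± 0.36 and Nefm minus Nefl was -0.55 ± 0.26. Gad1 exceeded Gad2 by 0.26 ± 0.06, a difference between genes that are both near 0. The 2 pairs that did not pass were Shank3 against Shank1 (-0.05 ± 0.56, exact adjusted p = 0.906) and Slc17a7 against Slc17a6 (-0.25 ± 0.70, exact adjusted p = 0.502). In the latter, Slc17a6 was the higher in A1, A2, A4 and A9 and Slc17a7 in the other 2 A numbers.

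**Figure D2:**
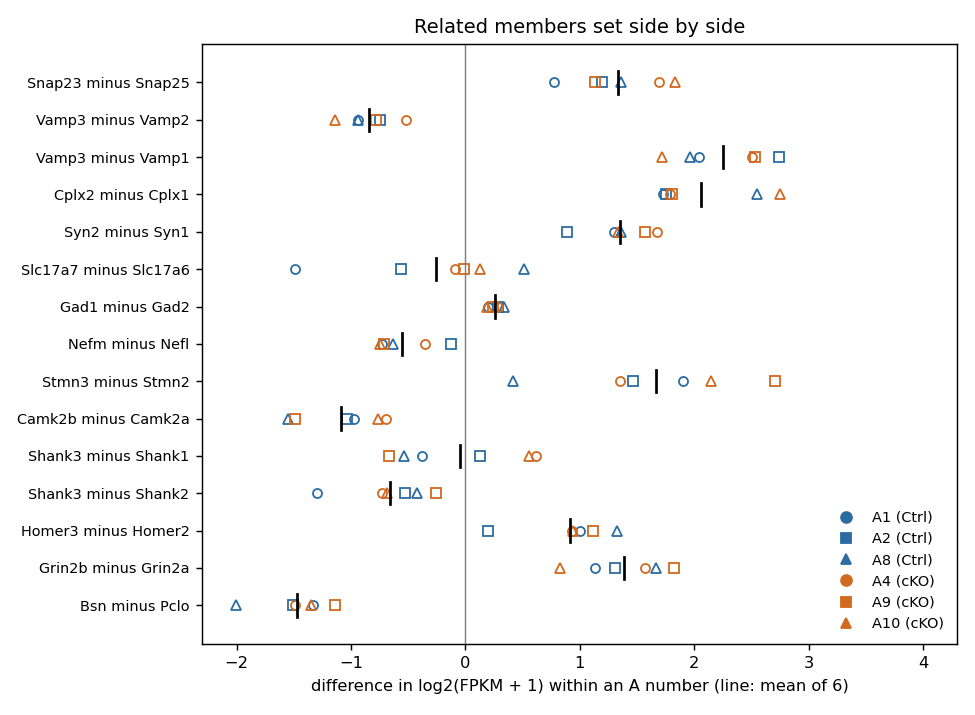
Difference in log2(FPKM + 1) between 2 related members within an A number, for 15 pairs, with 1 point per A number (blue for Ctrl, orange for cKO) and a black line at the mean of 6. In 13 pairs the 6 points lie on 1 side of the zero line, as for Snap23 minus Snap25, while Shank3 minus Shank1 and Slc17a7 minus Slc17a6 straddle it.

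Whether any of these transcripts differed by genotype was then asked. With limma on log2(FPKM + 1), 0 of the 26 tested members had an adjusted p under 0.05, against 0% of all 17540 genes tested. At an unadjusted p under 0.05 stood 2 of the 26, both lower in cKO, where 7.69% of all genes stood at that level (4.71% lower and 2.98% higher). The median log2 fold change of the 26 was -0.11, with 17 below 0, against -0.01 over all genes, of which 50.8% were below 0. Of the 26, 2 had A numbers that did not overlap, Vamp2 and Prox1, both lower in cKO, beside 7.26% of all genes, and 0 did so with cKO higher, beside 5.73%. When single libraries were compared, 0 of the 26 were apart in either direction, beside 2.75% of all genes with cKO higher and 4.36% with cKO lower. The members' counts by p-value and by overlap were thus near the shares of all genes. The direction was less even than over all genes, with 17 of the 26 below 0 and 9 above, which was not tested. With the 12 libraries in 1 limma fit and A numbers as random effects, 112 of all genes and still 0 of the 26 had an adjusted p under 0.05. Directions here rest on the labels, which the Tnfrsf1b reads do not check.

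The 2 members with an unadjusted p under 0.05 were Prox1 and Sv2a, and neither passed after adjustment. The mean level of Prox1 was 12.3 ± 2.28 FPKM for Ctrl against 7.04 ± 2.45 FPKM for cKO (SD over 3 A numbers). Its log2 fold change was -0.75 with an SE of 0.25, and limma gave an adjusted p = 0.539 from an unadjusted p = 0.0210. The mean level of Sv2a was 9.89 ± 4.39 FPKM for Ctrl against 3.99 ± 1.21 FPKM for cKO (SD over 3 A numbers). Its log2 fold change was -1.06 with an SE of 0.36, and limma gave an adjusted p = 0.557 from an unadjusted p = 0.0233. For Sv2a the A numbers overlapped, since A8 of Ctrl at 4.92 FPKM lay below A10 of cKO at 5.23 FPKM. Leaving out A1, A2, A4 or A9 in turn left 0 of the 26 with an unadjusted p under 0.05. Without A8 there were 3, Vamp2, Sv2a and Prox1, and without A10 there were 3, Sv2a, Tubb3 and Prox1, with 0 past adjustment in each case by limma. The log2 fold change of Sv2a without A8 was -1.45, with an adjusted p = 0.131 by limma.

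The remaining tested members had log2 fold changes from -1.06 for Tubb3 (SE 0.53, limma adjusted p = 0.721) to 0.41 for Stmn3 (SE 0.69, limma adjusted p = 0.950). The Tubb3 value ranged from -1.65 without A10 to -0.71 without A9, and was -2.28 with a pseudocount of 0.1 and -2.47 with voom on recovered reads. That of Stmn3 ranged from -0.35 to 0.88 when an A number was left out. The mean of Vamp2 was 32.1 ± 3.41 FPKM for Ctrl against 26.6 ± 1.41 FPKM for cKO (SD over 3 A numbers), and its log2 fold change of -0.26 had an SE of 0.12 and an adjusted p = 0.714 by limma. Its A8 value in Ctrl and its A9 value in cKO, both 28.1 FPKM, were almost equal, and single libraries of the genotypes overlapped. The value for Snap23 was above 0, at 0.37 on the log2 scale with an SE of 0.21, and its adjusted p = 0.764 by limma. Without A1 it was 0.20. Map2 had a log2 fold change of -0.06 with an SE of 0.12 (adjusted p = 0.958 by limma), and 0.013 after upper quartile scaling. The difference between genotypes was also compared between S1 and S2: 0 of the 26 had an adjusted p under 0.05 by limma (0% of all genes), and 1, Cplx1, had an unadjusted p under 0.05 (5.02% of all genes).

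**Figure D3:**
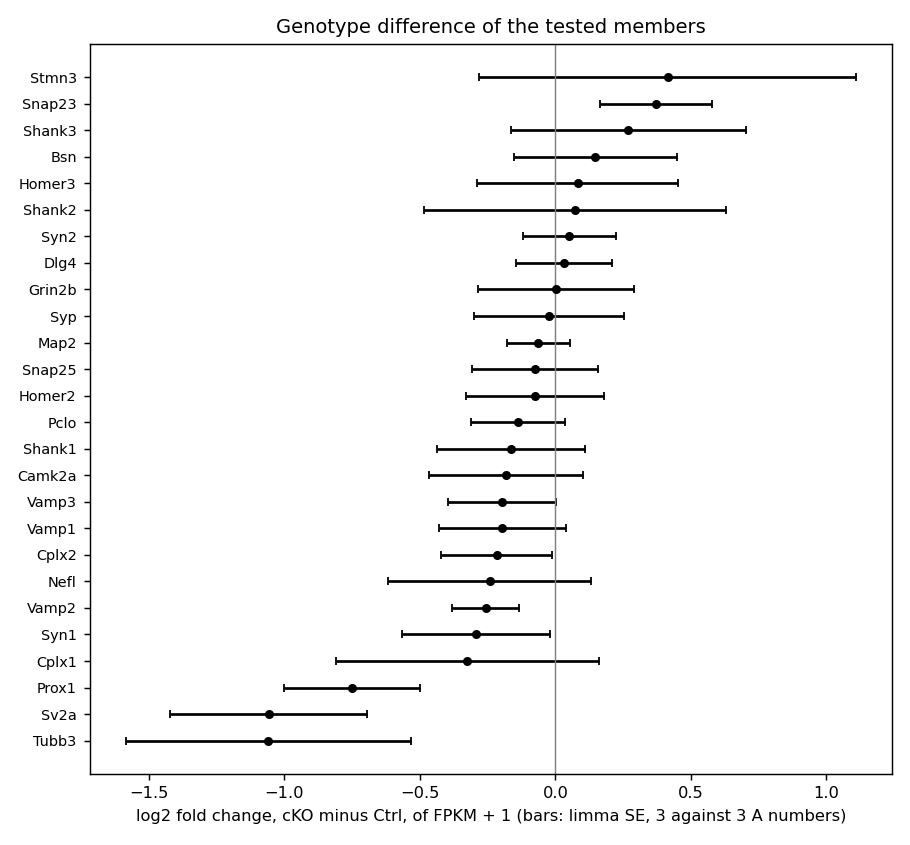
Log2 fold change of cKO against Ctrl on the FPKM + 1 scale for the 26 tested members, with limma standard errors from 3 against 3 A numbers. Tubb3 and Sv2a lie farthest to the left at -1.06 and Prox1 follows at -0.75, and none of the 26 had an adjusted p under 0.05.

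Markers of other cells differed between the same A numbers. The 12 oligodendrocyte genes summed to 2164, 2350 and 1090 FPKM in Ctrl and to 311, 446 and 753 FPKM in cKO. All 12 were lower in cKO on average, 11 of them with an unadjusted p under 0.05 and 0 with an adjusted p under 0.05, with a median log2 fold change of -1.75. None of the 12 was at 0. A1 and A2 were the 2 highest A numbers of their sum and also of Sv2a, Prox1 and Vamp2. They were likewise the 2 highest for the sums of the ependymal, mature neuron and immature granule neuron genes. A4 was the lowest for the oligodendrocyte sum, Sv2a and Vamp2, and A9 for Prox1. The part of oligodendrocyte RNA in the Sv2a, Prox1 and Vamp2 values was not tested. Between the highest and the lowest A number the summed oligodendrocyte genes varied 7.55-fold, Sv2a 4.70-fold, Prox1 2.96-fold and Vamp2 1.35-fold.

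**Figure D4:**
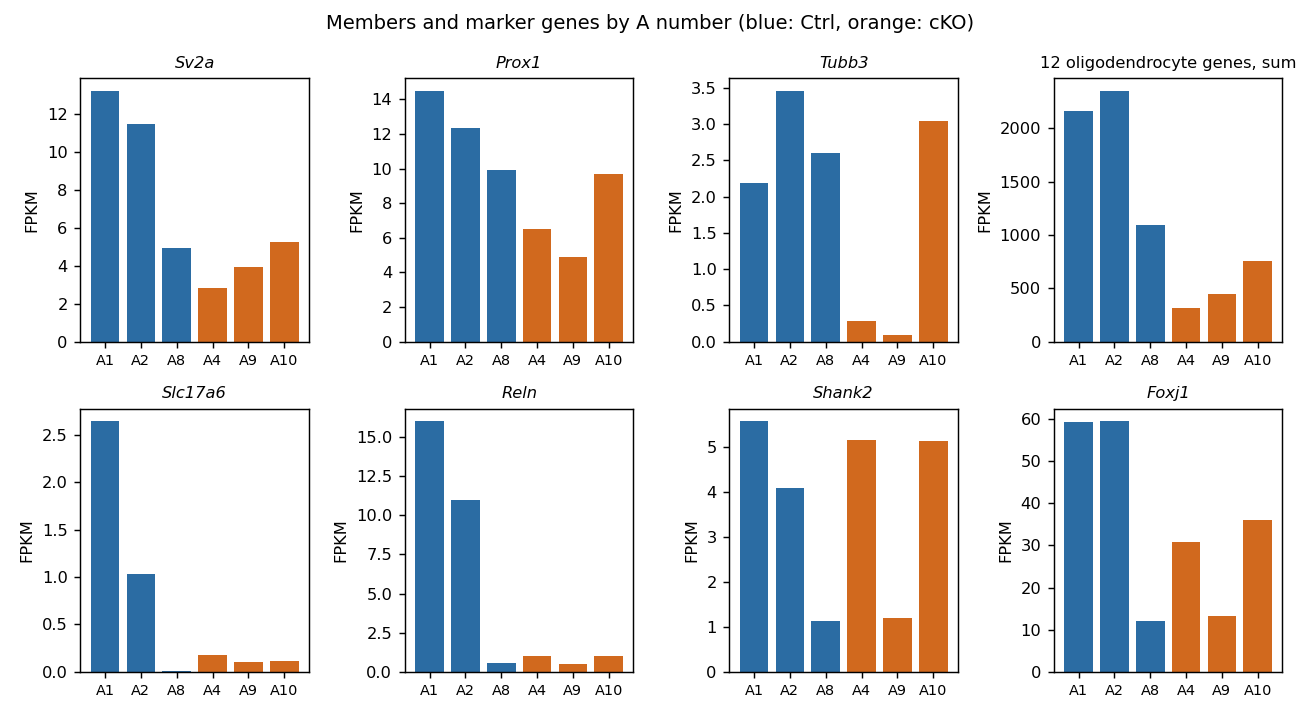
FPKM by A number (bars are means of S1 and S2, blue for Ctrl, orange for cKO) of Sv2a, Prox1, Tubb3, Slc17a6 and Shank2 beside the summed 12 oligodendrocyte genes and the marker genes Reln of neurons and Foxj1 of ependymal cells. Sv2a and the oligodendrocyte sum are highest in A1 and A2, Slc17a6 and Reln are high in A1 and A2 alone, and Shank2 and Foxj1 are lowest in A8 and A9.

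Further marker lists were read in the same way. The 8 immature granule neuron genes, led by the transcription factor Sox11, summed to 13.4, 13.4 and 5.08 FPKM in Ctrl and to 4.95, 5.62 and 8.28 FPKM in cKO, beside the Prox1 values above, and 3 of them were tested, with 0 at an unadjusted p under 0.05. Endothelial genes, led by Cldn5, were low in A8, A9 and A10, summing to 59.6, 41.8 and 6.13 FPKM in Ctrl and 44.1, 7.60 and 6.62 FPKM in cKO. Microglial genes summed to between 16.1 and 19.1 FPKM in Ctrl and between 21.4 and 38.5 FPKM in cKO, with the highest sum in A4. Oligodendrocyte precursor genes, led by Olig1, summed to between 131 and 172 FPKM in Ctrl and between 82.1 and 110 FPKM in cKO. Most of this sum came from Olig1, Olig2 and Sox10, with means of 69.5, 29.0 and 17.0 FPKM. All listed precursor genes but Olig1 and Sox10 overlapped between genotypes, among them Pdgfra, Cspg4, Gpr17 and Vcan. Genes of mural cells, led by Vtn, ranged from 68.4 to 113 FPKM in Ctrl and from 93.7 to 145 FPKM in cKO. The part of these cells in the levels of the 38 transcripts was not tested.

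Other genes of the same machinery set the 38 in context. Of 32 further SNARE and fusion genes, 27 were tested with limma and 0 had an unadjusted or adjusted p under 0.05. The highest were Syt11, a synaptotagmin that does not bind calcium, at a mean of 113 FPKM, the endosomal syntaxin Stx12 at 19.7 FPKM and Stxbp3, a syntaxin-binding protein, at 19.2 FPKM. All 3 exceeded Snap25, Stx1a and Syt1 in every A number. The smallest p-values were those of Snap47 (log2 fold change 0.27, SE 0.12, limma adjusted p = 0.650) and Vamp5 (-0.73, SE 0.35, limma adjusted p = 0.718).

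Of 28 further vesicle and active zone genes, 19 were tested and 1 had an unadjusted p under 0.05, lower in cKO. Slc6a11, a GABA transporter of the plasma membrane, had a mean of 193 FPKM, far above the vesicular GABA transporter Slc32a1, and the proton pump subunit Atp6v0a1 had 23.1 FPKM. The gene at that p was Bin1, which encodes an amphiphysin (log2 fold change -1.39, SE 0.28, limma adjusted p = 0.333), followed by its relative Amph (-0.37, SE 0.18, limma adjusted p = 0.706). Of 28 further postsynaptic genes, 21 were tested and 1, Dlg1, a relative of Dlg4, had an unadjusted p under 0.05 (log2 fold change -0.39, SE 0.13, limma adjusted p = 0.516). Glutamate receptor subunits led there, with Grin2c at 57.8 FPKM and Gria2 at 48.7 FPKM, followed by the kinase Camk2g at 46.6 FPKM. Gria2 had the next smallest p (log2 fold change 0.43, SE 0.18, limma adjusted p = 0.649). Thus Grin2c stood well above Grin2a and Grin2b, and Camk2g above Camk2a and Camk2b, in every A number.

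Among these 4 further lists of related genes, that of the cytoskeleton held the most genes with an unadjusted p under 0.05. Of 18, 15 were tested, and 8 had an unadjusted p under 0.05, all lower in cKO, where 4.71% of all genes were. None passed after adjustment. The highest were the tubulins Tubb4a at a mean of 129 FPKM and Tubb2b at 119 FPKM and the axon growth gene Dpysl2 at 113 FPKM. The smallest p-values were those of Stmn4 (log2 fold change -1.68, SE 0.39, limma adjusted p = 0.344) and Mapt, which encodes tau (-0.74, SE 0.17, limma adjusted p = 0.344). Mapt had 31.5, 32.0 and 21.8 FPKM in Ctrl and 16.5, 15.3 and 17.2 FPKM in cKO, whereas Map2, its dendritic relative, had overlapping values in the genotypes. Mapt, Stmn4, Tubb4a and Bin1 are also known from oligodendrocytes, whose summed markers were lower in the same A numbers, and that part was not tested. Stmn1, Map1a, Gap43, Dpysl3 and Uchl1 were the others of the 8, and none of the 8 was assigned to a cell type.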

How the data were processed

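Libraries were SMART-Seq V4 preparations read as 125-base pairs, per the labels' protocols. The authors deposited FPKM values for 56941 genes; FastQC, STAR, featureCounts and DESeq2 and the builds mm10 and GRCm38 are named, without versions, per the submitters' processing notes. Printed gene coordinates are those of the deposited table, and none of the 38 genes has the same start and end as in GENCODE M21 (GRCm38), so their build is not given in the sources used here. Promoters come from RefSeq (GRCm38.p6), and their coordinates cannot be set beside those printed for the genes. For Map2 the promoter window ends at 66175328, whereas the gene starts at 66214432 in the deposited coordinates.

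Rows sharing a symbol were summed (147 symbols). FPKM steps gave back reads, and 83.8% to 87.8% of values came out whole within 0.05 reads. The values were tested as log2(FPKM + 1), averaged over S1 and S2 (r 0.980 to 0.984 within an A number, 0.788 to 0.896 between), with limma 3.58.1 (R 4.3.3, eBayes with trend) and Benjamini-Hochberg adjustment over 17540 genes with a mean of at least 1 FPKM. Fold changes on this scale understate those of low genes. Every member is described by its level, with full genotype statistics for those with an unadjusted p under 0.05 or with libraries that do not overlap between genotypes. From each further list the 3 highest genes and the 2 of smallest p are named, and from each marker list the highest, except for some genes that are not reported here. Reln, Tbr1, Elavl4, Meg3, Snhg11, Vip, Nrgn, Chn1 and Calb1 were chosen after their values were seen. So were Olig2, Sox10, Pdgfra, Cspg4, Gpr17, Vcan and the genotype values of Map2, Vamp2, Tubb3, Stmn3 and Snap23. Stmn1, Map1a, Gap43, Dpysl3 and Uchl1 were also named after their values were seen. Scripts were tested on simulated data. The members and lists were chosen with earlier results of these data known. Alternatives covered the pseudocount, filter, scaling, libraries and model.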

Additional observations from a re-analysis of the deposited data

How the results depend on the processing

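Of 400 recomputed member fold changes, 372 kept their sign, 28 did not and 0 passed the threshold, and 13 of the 26 members kept their sign throughout. Members changed between genotypes stayed at 0 in each alternative run. Over all genes the count of 0 became 112 when the 12 libraries entered 1 fit in which A numbers were random effects (correlation 0.915) and 80 when the replicate block (S1 or S2) was added, and it ranged from 0 to 1 when an A number was left out, 1 being the value without A1. In those limma fits with random effects the smallest adjusted p among members was 0.166 without the block and 0.224 with it. The S numbers pair no Ctrl with a cKO sample; S2 minus S1 correlated between A numbers at 0.133 to 0.190. Limits of 0.5 and 5 FPKM put 5 members in the upper class, adding Cplx2 and Syn2. These limits also took Rbfox3, at 0.590 FPKM in A1, out of the near-zero class. The log2 fold change turned sign for Syp (0.023 under upper quartile scaling and 0.023 in S2 alone), Map2 (0.013 under upper quartile scaling), Dlg4 (-0.025 in S2 alone) and Grin2b (-0.016 with a pseudocount of 0.1, -0.035 in S2 alone and -0.028 with voom). The cause was not tested.

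Leaving out each A number in turn gave log2 fold changes from -0.18 to 0.020 for Snap25, -0.73 to 0.031 for Cplx1, -0.091 to 0.14 for Syn2, -0.13 to 0.095 for Syp, -0.032 to 0.31 for Bsn, -0.35 to 0.88 for Stmn3, -0.064 to 0.13 for Dlg4, -0.41 to 0.57 for Shank2, -0.048 to 0.61 for Shank3, -0.19 to 0.0034 for Homer2, -0.32 to 0.33 for Homer3, -0.14 to 0.24 for Grin2b, and from -0.18 to 0.076 for the difference of Shank3 from Shank1.

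With 5 A numbers the exact pair test cannot reach 0.05, so the count of pairs was not recomputed there. With 3 A numbers per genotype and SEs of 0.12 to 0.69, small differences were not detectable, and Slc32a1, Gad2, Stx1a, Slc17a6 and Stmn2 had at most 2 reads per library in at least 1 A number.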
